A study of Nasturtium officinale with 24 samples.

Results

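A set of 100 transcript contigs of watercress (Nasturtium officinale) was examined, whose counts rose under water in petioles, the leaf stalks, and rose there by a larger log ratio than in stems. They were chosen on measured values out of 80741 contigs. Estimated counts were scaled to a library sum of 1000000 (CPM), and the log2 ratio of the group means under water and in air, each with 1 CPM added, was the rise. The choice asked for a mean of at least 4 CPM over the 8 groups, which 25997 contigs had. It also asked for a rise in petioles of at least 1 on both days, and for levels in air that differed between stems and petioles by less than 2 on the log2 scale on both days. These conditions left 1948 contigs, of which the 100 with the highest score were kept. The score is the smaller of the 2 daily gaps, and a gap is the rise in petioles minus the rise in stems. The rise, the gap and the difference between tissues in air are therefore described here and not tested.

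The plants, about 3 weeks old, had been raised at 23 °C in short days, lit for 8 h at 100 µmol photons m-2 s-1 and dark for 16 h. They were then kept in air or completely submerged, and stems and petioles were taken separately after 1 day or 2 days. The 8 groups are petioles in air, petioles under water, stems in air and stems under water, each at 1 day and at 2 days, with 3 libraries a group and 24 in all. All groups share the light, the temperature and the age, no genotype differs between them, and each library is a pool of 5 plants. A pooled library gives no value for a single plant, and in whole organs fewer cells of a type and less RNA per cell cannot be told apart. The series is about underwater elongation of the stem.

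Gases diffuse slowly in water, so a submerged shoot takes up less oxygen and carbon dioxide and retains ethylene, a gaseous hormone made by the plant. Many semi-aquatic plants answer by lengthening stems or petioles, which can bring leaves back to the surface, and ethylene, gibberellin and abscisic acid take part in that growth. Plants short of oxygen also draw on fermentation and stored sugars. The files do not pair the contigs with genes, so no role can be given to any of the 100, no sequence is shown, and the tissue labels could not be checked against marker genes.

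Library totals lay between 17617430 and 48928331 estimated counts. A count of 3 in a library, taken as the limit below which no fold is given, was 0.0613 to 0.17 CPM. A principal component analysis separated the tissues along its second axis (15.3% of the variance), where scores ran from 27.1 to 69.7 in stems and from -82.8 to 2.12 in petioles. Replicate 1 of submerged petioles at 1 day had the score of 2.12, and the nearest other petiole library scored -34.2. On the first axis (39.4% of the variance) this library scored 60.1. The other submerged petiole libraries scored 108 to 145 there, and submerged stems 48.4 to 59.1. Replicate 1 stood nearest to the stems, so several results that rest on it are also given without it. Others, such as the median rise and gap at 1 day, are given only with it. The part of this library in those results was not tested.

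Together the 100 contigs took up a far larger share of the counts in submerged petioles than in any other group. In petioles in air at 1 day their summed share was 0.0415%, 0.0436% and 0.0572% in replicates 1, 2 and 3, the order used throughout, and under water it was 0.35%, 0.454% and 0.527%. In stems at 1 day it was 0.0805%, 0.0735% and 0.0818% in air and 0.186%, 0.194% and 0.222% under water. Each submerged group lay wholly above its group in air, and petioles lay below stems in air and above them under water. At 2 days the share in petioles was 0.0505%, 0.0574% and 0.0519% in air and 0.552%, 0.714% and 0.494% under water. In stems at 2 days it was 0.0811%, 0.082% and 0.076% in air and 0.226%, 0.252% and 0.19% under water. The order of the groups was thus the same on both days.

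As means, the share in petioles went from 0.0474% ± 0.00854 (SD, n = 3) in air to 0.444% ± 0.0886 under water at 1 day, a ratio of 9.35, or 10.3 without the library that stood apart. At 2 days it went from 0.0533% ± 0.00364 to 0.587% ± 0.114, a ratio of 11. In stems it went from 0.0786% ± 0.00441 to 0.201% ± 0.0188 at 1 day, a ratio of 2.55. At 2 days the stem share was 0.0797% ± 0.00327 in air and 0.223% ± 0.0312 under water, a ratio of 2.79. No single contig set this sum. The 10 most counted of the 100 held 38.1% of their counts in submerged petioles at 1 day and 37.9% at 2 days, and the most counted of all, GEMC01015786.1, held 9.02% and 8.77%.

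**Figure D1:**
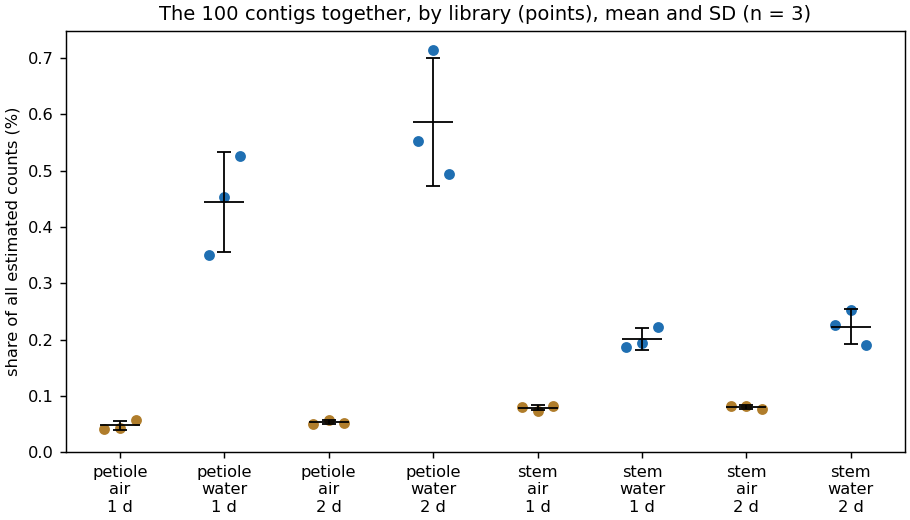
Summed share of all estimated counts (%) of the 100 contigs in each library, with the 8 groups on the x axis, points for libraries, and bars for the mean and SD of 3 libraries. Submerged petioles, with means of 0.444% and 0.587%, lie above submerged stems, with 0.201% and 0.223%, while petioles in air lie below stems in air.

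The median rise of the 100 in petioles was 3.05 at 1 day, from 1.01 to 6.03, and 3.09 at 2 days, from 1.30 to 6.50. In stems it was 1.10 at 1 day, from -0.79 to 4.19, and 1.07 at 2 days, from -0.50 to 4.63. Over the 25997 contigs of at least 4 CPM the medians were near 0, at 0.04 and 0.08 in petioles and at -0.11 and 0.06 in stems. A rise of at least 3 in petioles was seen in 51 of the 100 at 1 day and in 55 at 2 days, and a rise of at least 5 in 6 and in 12. The contigs therefore differed widely in size of response, and the added 1 CPM makes the rise of contigs that were near 0 in air smaller than their ratio.

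The median gap between the tissues was 1.68 at 1 day and 1.75 at 2 days, against 0.16 and 0.02 over the contigs of at least 4 CPM. The scores had a median of 1.58 and a maximum of 5.35, with 61 of the 100 at 1.5 or more and 20 at 2 or more. The smaller gap, which sets the score, was that of 1 day in 63 of the 100. At the limit the scores were close together. GEMC01031250.1 and GEMC01036594.1 were the last contigs inside, both at 1.23, and GEMC01052680.1 at 1.23 and GEMC01039945.1 at 1.22 were the first outside.

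A gap in log ratio can come from a higher level in petioles under water, from a lower level in petioles in air, or from both, because the gap equals the tissue difference under water plus the stem-over-petiole difference in air. The median log2 difference of petioles over stems under water was 1.21 at 1 day and 1.42 at 2 days, against -0.07 and -0.15 over the contigs of at least 4 CPM. The median log2 difference of stems over petioles in air was 0.56 and 0.33, against 0.25 and 0.21. In air, stems had the higher mean in 74 of the 100 at 1 day and in 77 at 2 days, with 70 higher on both days and 19 lower on both. For 25 of the 100 the difference in air was the larger component on both days.

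Under water the mean in petioles was above that in stems in 95 of the 100 at 1 day, also without the library that stood apart, and in 97 at 2 days. A difference of at least 1 was seen in 59 and in 70. The other contigs, 5 at 1 day and 3 at 2 days, rose more strongly in petioles by log ratio while the level there stayed below that of submerged stems. The 3 that did so on both days were GEMC01039855.1, GEMC01052959.1 and GEMC01046439.1, picked out after their values were seen.

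GEMC01046439.1 is an example of a contig that started low in petioles. It read 0.671, 0.855 and 3.52 CPM in petioles in air at 1 day and 23.4, 28.1 and 30.6 CPM under water. In stems it read 9.48, 5.49 and 12.7 CPM in air and 50.3, 41.7 and 38.1 CPM under water. Its petioles under water thus lay above stems in air and below stems under water in every library of that day.

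**Figure D2:**
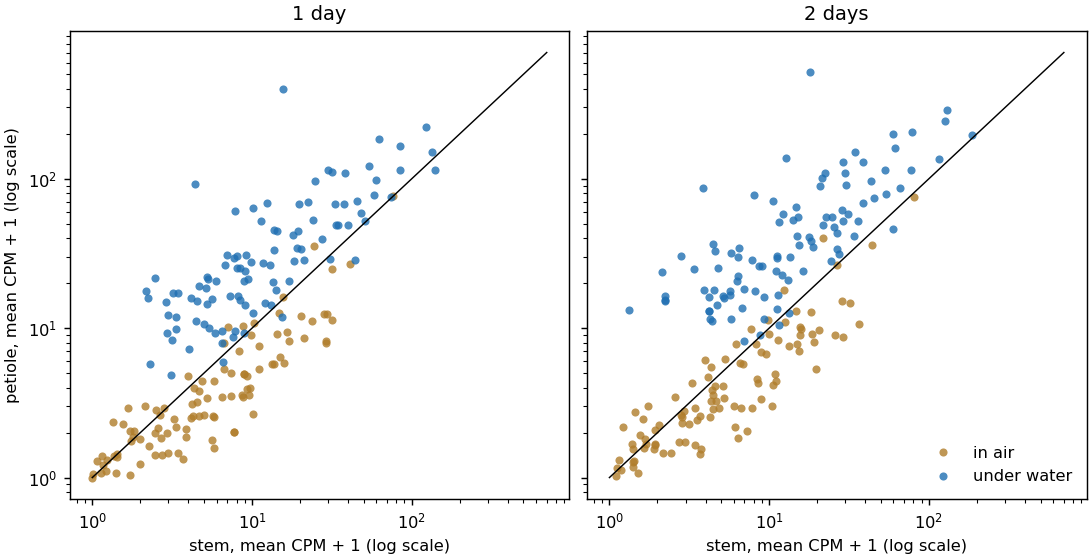
Mean level of each of the 100 contigs in stems (x axis) and petioles (y axis), CPM plus 1 on log scales, for both treatments on each day, with the line of equal levels. Most points in air lie below the line and nearly all points under water above it, 95 of 100 at 1 day and 97 at 2 days.

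Levels between contigs can be compared per length, with the deposited TPM values, which adjust for contig length. At 1 day the median TPM of the 100 in petioles was 1.58 in air and 21.3 under water. At 2 days these values were 1.88 and 30.1. In stems it was 3.1 and 8.34 at 1 day, and 2.81 and 9.81 at 2 days. The contigs of at least 4 CPM had medians between 8.11 and 10.1 in all 8 groups. So by these medians the 100 were of low abundance in air in both tissues, near the usual level in submerged stems, and above it in submerged petioles. The choice built in part of this order, because a strong riser could reach the mean of 4 CPM through submerged petioles. Libraries of a group scattered more among the 100 than among the contigs of at least 4 CPM. In petioles at 1 day the median coefficient of variation over 3 libraries was 38.7% in air and 22.7% under water, against 19.9% and 17%. The 22.7% includes the library that stood apart. In petioles in air at 1 day the median level was 1.98 CPM against 12.4 CPM, so scatter there is not compared at like levels.

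Without overlap between libraries on both days, submerged petioles lay above petioles in air in 96 of the 100, against 20.2% of the contigs of at least 4 CPM, and in 98 without the library that stood apart. The 4 with an overlap, named for that reason, were GEMC01047791.1, GEMC01054350.1, GEMC01067116.1 and GEMC01056214.1. Submerged petioles lay wholly above submerged stems in 66 on both days, against 11.2%, and in 75 without that library. Submerged stems lay wholly above stems in air in 62, against 15.6%. Stems in air lay wholly above petioles in air in 39, against 20.2%. The choice of the contigs used these differences, so nothing is read from the counts beyond how far single libraries overlapped.

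By their response in stems the 100 fell into 3 classes. A rise of at least 1 on both days in stems as well was seen in 41. A change of less than 1 in either direction on both days was seen in 34. The remaining 25 reached 1 in stems on a single day, 13 at 1 day and 12 at 2 days. No contig fell by 1 or more in stems on both days.

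**Figure D3:**
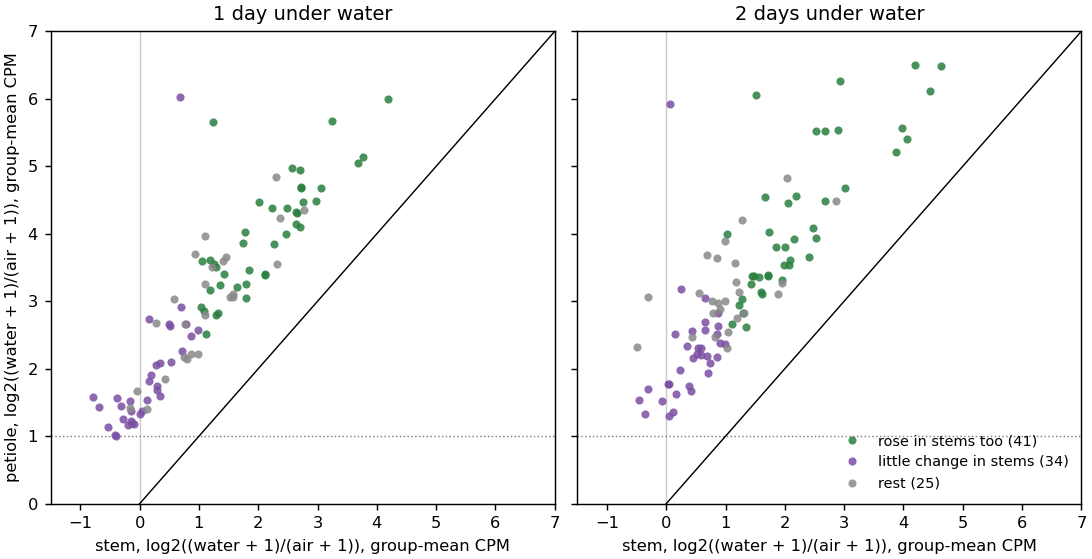
Rise in stems (x axis) against rise in petioles (y axis) of the 100 contigs, log2 of group-mean CPM plus 1 under water over air, at 1 day and 2 days, coloured by the class of the stem response. All points lie above the line of equal rise because the contigs were chosen so. The 41 that rose in stems too reach the largest rises in petioles at 2 days, an order that the choice favoured.

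For the same gap a contig that rose in stems needed a larger rise in petioles. The choice therefore built in part of the order of the classes. The 41 contigs that rose in both tissues had the largest median response in petioles of the 3 classes. Their median rise was 3.99 and 3.92 in petioles and 2.12 and 2.01 in stems, at 1 day and 2 days. The median of their mean levels went in petioles from 1.57 to 44.6 CPM at 1 day and from 1.9 to 51.6 CPM at 2 days, and in stems from 2.98 to 13.4 CPM and from 2.72 to 19.9 CPM. These medians were low in air in both tissues and higher in petioles than in stems under water, although GEMC01046439.1 on both days, and GEMC01046440.1 and GEMC01071883.1 at 1 day, had the lower mean in submerged petioles.

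GEMC01015786.1, of 975 bases, had the highest score of this class, 4.42, and with a mean of 439 TPM in submerged petioles the highest level per length among the 100. It read 5.62, 6.47 and 8.75 CPM in petioles in air at 1 day and 292, 431 and 476 CPM under water. In stems it read 5.57, 5.84 and 5.62 CPM in air and 17.4, 14.2 and 12.5 CPM under water. The tissues thus overlapped in air, submerged libraries lay above those in air in both, and submerged petioles were far above all other libraries. At 2 days petioles read 7.49, 4.81 and 8.09 CPM in air and 400.2, 706 and 437 CPM under water, and stems read 5.41, 4.65 and 5.64 CPM in air and 15, 21.6 and 14.2 CPM under water. Its rise was 5.66 and 6.05 in petioles and 1.23 and 1.52 in stems.

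GEMC01071467.1, of 529 bases, was next in level per length, with 402 TPM in submerged petioles, and ranked 28 by score. It read 1.19, 1.39 and 2.19 CPM in petioles in air at 1 day and 101, 177 and 214 CPM under water. In stems it read 2.98, 3.9 and 4.06 CPM in air and 66.4, 71.7 and 113 CPM under water. Its rise was 4.19 and 4.63 in stems and 5.99 and 6.49 in petioles, gaps of 1.81 and 1.86. At 1 day the highest submerged stem exceeded the lowest submerged petiole, which was the library that stood apart. Without that library these groups did not overlap, and the gap at 1 day was 2.06.

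GEMC01051814.1, of 790 bases, had the second highest score of the class, 2.40. It read 1.87, 1.72 and 2.74 CPM in petioles in air at 1 day and 81.6, 88.4 and 119 CPM under water, and in stems 3.02, 3.05 and 3.47 CPM in air and 26.4, 23.3 and 21.6 CPM under water. The 4 groups of that day did not overlap one another, with petioles in air lowest and petioles under water highest.

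The 34 contigs with little change in stems had smaller median rises in petioles, in part because a smaller rise sufficed for the choice, and higher median levels in air. Their median rise in petioles was 1.59 and 2.20, and in stems 0.13 and 0.45. The median of their mean levels went in petioles from 4.16 to 16.1 CPM at 1 day and from 4.83 to 24.2 CPM at 2 days. In stems it went from 6.57 to 7.68 CPM and from 6.79 to 10.6 CPM. These medians were thus lower in petioles than in stems in air and higher under water. Single contigs differed from that order, such as GEMC01039855.1 and GEMC01052959.1, which stayed below submerged stems on both days.

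GEMC01006994.1, of 1522 bases, had the highest score of all, 5.35. It read 0.114, 0.376 and 0.729 CPM in petioles in air at 1 day and 78.5, 99 and 94.7 CPM under water. In stems it read 1.31, 1.97 and 1.9 CPM in air and 3.45, 3.39 and 3.26 CPM under water. Petioles in air were thus the lowest libraries and petioles under water by far the highest. At 2 days petioles read 0.282, 0.687 and 0.332 CPM in air and 70.3, 113 and 74.2 CPM under water, while stems read 2, 3.46 and 2.68 CPM in air and 3.22, 3.29 and 2.08 CPM under water. The stem groups overlapped at 2 days. Its rise was 6.03 and 5.92 in petioles and 0.68 and 0.06 in stems, and its estimated counts were whole numbers in every library.

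GEMC01026389.1, of 963 bases, followed in this class with a score of 2.37. It read 11.8, 10.8 and 7.89 CPM in petioles in air at 1 day and 29.3, 32.5 and 35.4 CPM under water, and in stems 22, 24.9 and 21.6 CPM in air and 13.6, 13.4 and 11.2 CPM under water. On that day submerged petioles lay above petioles in air and submerged stems below stems in air, with no overlap in either tissue. At 2 days stems read 20, 19.8 and 19 CPM in air and 17.7, 28.5 and 19 CPM under water, so that the groups overlapped, while petioles read 7.53, 10.8 and 7.96 CPM in air and 41.7, 69.3 and 53 CPM under water. A mean below air in submerged stems was seen in 16 of the 100 at 1 day and in 6 at 2 days. The 3 with it on both days were GEMC01030204.1, GEMC01058226.1 and GEMC01058220.1, with stem changes between -0.46 and -0.14.

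The other 25 contigs had median rises of 3.07 and 3.07 in petioles and of 1.10 and 0.99 in stems. GEMC01061768.1 had the highest score among them, 2.85, and read 14.7, 21.6 and 25.7 CPM in submerged petioles at 1 day and 2.76, 0.608 and 1.06 CPM in submerged stems. Its estimated counts were not whole, so it shares reads with other contigs, and it was at 0 or nearly 0 in replicate 2 of petioles in air on both days. GEMC01051813.1 was next, at 2.77, and read 16.7, 11.5 and 16.3 CPM in submerged petioles at 1 day and 2.89, 0.415 and 0.386 CPM in submerged stems. For both contigs every submerged petiole library exceeded every submerged stem library at 1 day.

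**Figure D4:**
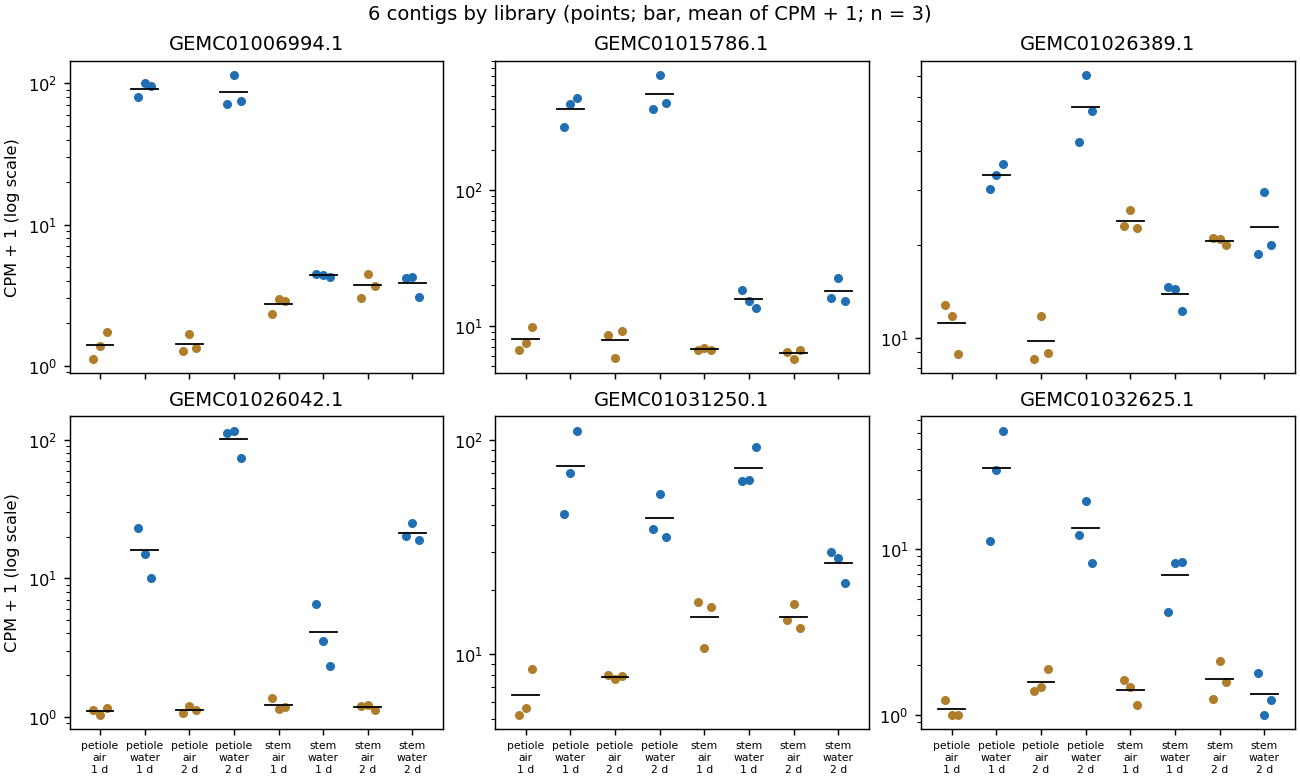
CPM plus 1 on a log scale in each library (points) and the mean (bars, n = 3) of 6 contigs over the 8 groups. In GEMC01006994.1 and GEMC01015786.1 submerged petioles stand far above the rest, GEMC01026389.1 is lower in submerged stems than in stems in air at 1 day, and the lower 3 contigs change between 1 day and 2 days under water.

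The contrast of 2 days against 1 day within a tissue and treatment did not enter the choice as such, although a rise was asked for on both days, which leaves less room for a change between them. It was tested for all 53919 contigs that passed the filter on low counts, all 100 among them, with edgeR's quasi-likelihood test and Benjamini-Hochberg adjustment, and a contig was called at an adjusted p under 0.05. The submerged libraries compared also gave the rises used in the choice. Of the contigs of at least 4 CPM only 7.6% rose by at least 1 in petioles on both days. Under water the shares beside the counts are therefore not those of contigs with a like response. No change of the 100 was detected in air. In petioles in air 0 were called higher, against 0.013% of the tested contigs and 0.0154% of those of at least 4 CPM, and 0 lower, against 0.00185% and 0.00385%. In stems in air 0 were called in either direction, against 0%. By edgeR at an unadjusted p under 0.05, 9 were higher and 1 lower in petioles in air, against 4.29% and 2.9% of all tested, and 1 was higher and 1 lower in stems in air, against 1.13% and 1.26%. The fitted level was higher at 2 days in 70 of the 100 in petioles in air, with a median log2 change of 0.19 against 0.00 over all tested, and in 60 in stems in air, with 0.06 against 0.01. DESeq2 and limma-voom also called 0 in both.

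In submerged petioles 11 of the 100 were higher at 2 days, against 0.976% of the tested contigs and 1.68% of those of at least 4 CPM, and 0 were lower, against 0.716% and 1.12%. At an unadjusted p under 0.05 edgeR gave 28 higher and 3 lower, against 6.76% and 9.24% of all tested. The median fitted log2 change of the 100 was 0.36, against -0.02 over all tested, and 78 of the 100 had a higher fitted level at 2 days. The count of 11 was 7 without replicate 2 at 1 day, 7 without replicate 1 at 2 days and 6 without replicate 2 at 2 days, 8 without the library that stood apart, and 0 when the 6 libraries of these groups were fitted alone. DESeq2 called 21 and limma-voom 18. The shares of all tested contigs called in these other fits are not given here, so their counts have no background to be read against.

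In submerged stems 6 of the 100 were higher at 2 days, against 0.831% of the tested contigs and 1.45% of those of at least 4 CPM, and 3 were lower, against 0.786% and 1.47%. At an unadjusted p under 0.05 edgeR gave 25 higher and 10 lower, against 6.24% and 6.67% of all tested. The median fitted change was -0.01, and 50 of the 100 had a higher fitted level at 2 days. Of the 9 called contigs 66.7% were higher, and with library totals in place of TMM factors 82.4% of 17 were. The count was 3 without replicate 3 at 1 day and 5 without replicate 2 at 2 days. DESeq2 called 19 and limma-voom 15. For these other fits, too, the shares of all tested contigs called are not given here.

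The contigs called in both tissues numbered 4 and were all higher at 2 days. They were GEMC01026042.1, GEMC01024455.1, GEMC01010165.1 and GEMC01038092.1, the last 2 named after their values were seen. GEMC01026042.1, of 466 bases, read 22.1, 13.9 and 9.11 CPM in submerged petioles at 1 day and 111, 116 and 73.4 CPM at 2 days. In submerged stems it read 5.54, 2.53 and 1.31 CPM at 1 day and 19.1, 24.3 and 17.8 CPM at 2 days, and in air it stayed at 0.358 CPM or less in all 12 libraries. The days did not overlap in either tissue. Its fitted log2 change was 2.75 ± 0.38 (SE) in petioles, adjusted p = 0.0015 by edgeR, and 2.53 ± 0.38 in stems, adjusted p = 0.0029. The petiole call ended only in the fit of 6 libraries, with an adjusted p of 0.1 by edgeR.

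GEMC01024455.1, of 761 bases, read 5.1, 3.49 and 2.93 CPM in submerged petioles at 1 day and 25.7, 23 and 20.4 CPM at 2 days. In submerged stems it read 2.74, 2.15 and 1.47 CPM at 1 day and 9.33, 8.58 and 12.1 CPM at 2 days. All libraries at 2 days lay above those at 1 day in both tissues. The fitted log2 change was 2.58 ± 0.32 in petioles, edgeR adjusted p = 0.00099, and 2.09 ± 0.32 in stems, edgeR adjusted p = 0.0029. The stem call held in all 14 other fits, and the petiole call ended in the fit of 6 libraries, with an edgeR adjusted p of 0.1.

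GEMC01004888.1, of 1416 bases, was called in petioles alone. It read 9.94, 2.03 and 2.24 CPM in submerged petioles at 1 day and 23.7, 48.9 and 10.3 CPM at 2 days, so the days did not overlap, but replicate 1 at 1 day, the library that stood apart, was close to replicate 3 at 2 days. Its fitted log2 change was 2.59 ± 0.59, edgeR adjusted p = 0.033. The call ended in 5 of 14 other fits, with edgeR adjusted p values up to 0.31. Its score of 1.58 was 0.71 without the library that stood apart.

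Among the contigs lower at 2 days in submerged stems, GEMC01031250.1, of 914 bases, read 63.5, 64.6 and 91.9 CPM at 1 day and 29.2, 27.2 and 20.5 CPM at 2 days. Its fitted log2 change was -1.64 ± 0.30, edgeR adjusted p = 0.0085, which became 0.055 without replicate 3 at 1 day. GEMC01032625.1, of 613 bases, read 3.16, 7.25 and 7.36 CPM at 1 day and 0.782, 0 and 0.216 CPM at 2 days. Its level at 2 days overlapped stems in air, which read 0.247, 1.09 and 0.582 CPM, and petioles under water still read 11.1, 18.5 and 7.25 CPM. The fitted log2 change of -4.36 ± 0.86, edgeR adjusted p = 0.013, rests on levels near 0 and depends on the count added in the fit. That call ended in 5 of 14 other fits, with edgeR adjusted p values up to 0.16.

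**Figure D5:**
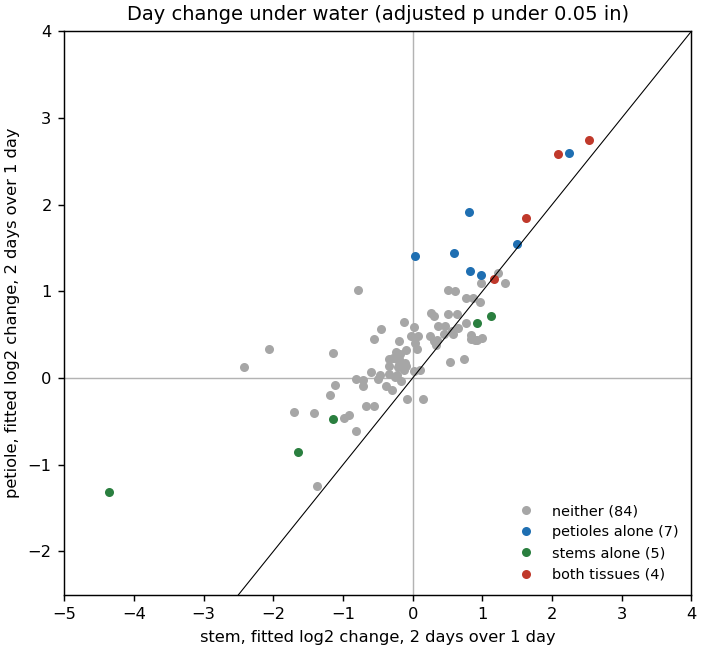
Fitted log2 change from 1 day to 2 days under water in stems (x axis) and petioles (y axis) of the 100 contigs, coloured by whether the change was called (edgeR, adjusted p under 0.05) in petioles alone (7), stems alone (5), both (4) or neither (84). More points lie above the line of equal change than below it, 80 of 100, and no contig was called for the difference itself.

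Whether the day change differed between the tissues was tested in the same fit, a test added after the data were seen. That test took stems and petioles as unpaired. No contig was called, 0 of the 100 and 0% of all tested, in air or under water. At an unadjusted p under 0.05 edgeR gave 7 of the 100 with a more positive change in submerged petioles and 0 with a more negative one, against 2.18% and 3.2% of all tested. In air it gave 1 and 0, against 1.55% and 1.1%. Under water 80 of the 100 had the more positive fitted change in petioles, with a median difference of 0.30 against -0.01 over all tested. In air 68 of the 100 did, with a median difference of 0.21 against 0.01. So the contigs called in 1 tissue alone were not shown to differ from the other tissue.

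The choice did not use length, the sharing of reads or the position in the assembly as such. CPM is not adjusted for length, however, so length enters through the minimum of 4 CPM and the added 1 CPM. With TPM in place of CPM 33 of the 100 were not found again, 22 of them with a mean TPM under the minimum. The 100 contigs had a median length of 1160.5 bases, from 349 to 5118, against 1399 over the contigs of at least 4 CPM. GEMC01051813.1 and GEMC01018675.1, of 403 bases, were the shortest, and GEMC01067116.1 and GEMC01057090.1, of 3959 bases, the longest. In 27 of the 100 the estimated counts were whole numbers within 1e-06 in every library, against 14.7%. The other contigs share reads with further contigs in at least 1 library, and their separate values are less certain.

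Contigs that follow each other in the numbering of the assembly were present as 8 pairs with 16 members, such as GEMC01051813.1 and GEMC01051814.1. In 7 of the 8 pairs both contigs were in the same class of stem response. The classes hold 41, 34 and 25 of the 100, and the share of all pairs that fall in the same class was not computed. The median distance between the contigs of a pair was 0.45 and 0.38 in petiole rise and 0.40 and 0.14 in stem rise, at 1 day and 2 days, against 1.29 and 1.09 in petioles and 1.11 and 0.95 in stems over all pairs of the 100. In score the contigs of a pair were no closer, with a median distance of 0.34 against 0.33. Whether such pairs are parts or variants of a single transcript is not given in the files, so 100 contigs need not be 100 genes.

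The contigs next in number to the 100 and not among them included 62 of at least 4 CPM. Of these 22, or 35.5%, rose by at least 1 in petioles on both days, against 7.6% of all contigs of at least 4 CPM. A gap above 0 on both days was seen in 37, or 59.7%, against 43.3%. Their median gap was 0.31 and 0.14. Neighbours that met the conditions with a high score are among the 100 and so not in this set, which keeps its gaps low. How far neighbours share the gap is therefore not read from these values.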

How the data were processed

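RNA was sequenced from both ends, and the library kit did not keep the strand, per the labels' protocols, so overlapping antisense transcripts cannot be told apart. The submitters' processing notes name kallisto, edgeR and limma. Versions, transcriptome and read filtering were not given in the sources used here. The estimated counts per contig are as deposited by the authors, not normalised, and contigs with near-identical sequence share reads. The TPM values, adjusted for effective length, are also as deposited, as are the lengths in bases per the file headers.

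CPM was computed from the deposited estimated counts and the library sums. Principal components were taken from log2 CPM; the first held 39.4% of the variance. For tests, estimated counts were rounded, contigs were filtered with filterByExpr (minimum count 10, minimum total 15), which left 53919 of the 63905 with a count, and libraries were scaled by TMM. edgeR 4.0.16 in R 4.3.3 fitted 1 mean per group to all 24 libraries (biological coefficient of variation 0.374), with two-sided quasi-likelihood tests adjusted by Benjamini-Hochberg over all tested contigs. The steps were run on simulated counts with a smaller spread than these data and with changes placed in submerged petioles alone. That run therefore does not show how the tests perform at the spread found here. Alternatives were DESeq2 1.42.0, limma 3.58.1 (voom), other scalings, filters and pseudocounts, a fit of 6 libraries, a replicate block and leaving out each library.

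The 100 contigs, the comparisons and the lists were chosen with earlier results of these data known. Lists of pathway genes and cell type markers were not used, because the files name no gene. Contigs are named by a rule: the 2 highest scores, overall and in each class of stem response, the 2 on each side of the limit, the 2 highest TPM in submerged petioles, the 2 largest called day changes in each direction, and the 2 shortest and 2 longest by length. Others are named where a set has 5 or fewer contigs or as an example, after their values were seen. Each replicate is a separate pool of 5 plants per the labels, so p-values measure the spread between pools. No molecular identifiers were used, and limits from a count of 3 cover counting error only.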

Additional observations from a re-analysis of the deposited data

How the results depend on the processing

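Of the 100 contigs, the choice made again found 86 with TMM-scaled CPM, 67 with TPM, 87 and 72 with pseudocounts of 0.5 and 4, 77 with group medians, and 84 to 95 with a library left out; 42 were found in all 29 settings. TMM scaling shifted the median 1-day gap of all contigs of at least 4 CPM by -0.15. The 11 day changes called in submerged petioles were 0 in the fit of 6 libraries, 21 by DESeq2, 18 by limma-voom, and 6 to 13 with a library left out. The 9 in submerged stems were 17 with library totals, a scaling that shifted the median of all tested contigs to 0.12, 19 by DESeq2, 15 by limma-voom, and 3 to 12 with a library left out. The cause was not tested. A setting that calls more of all contigs may also call more of the 100, and the shares over all tested contigs are not given for these settings. In air the count was 0 in every setting run. Deviations from group means had a mean r of 0.02 over 84 same-numbered pairs of libraries and of -0.01 over 168 others, and 12 of 24 libraries were closest to their own number, so the numbers were not taken as pairs; with a replicate block the counts were 11 and 10 under water and 0 in air. Among the scores of named contigs 516 of 522 values moved by less than the spread between replicates. Many of these could hardly move: the score is the smaller daily gap, and leaving out a library of the other day mostly leaves it unchanged. Among the day changes named by the rule, the largest ones, 12 of 84 values lost the call. None of these scores or day changes reversed. Other called day changes are not in the 84, such as that of GEMC01054350.1 in submerged petioles, which lost the call in 8 of 14 other fits. The median coefficient of variation of the 100 was highest in petioles in air, 38.7% at 1 day and 29.5% at 2 days.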
